A study of Mus musculus with 6 samples.

Results

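The genes described here are 10 candidate entry routes for aminoglycosides other than the hair bundle channel, namely Lrp2, Cubn, Mcoln3, Mcoln2, Trpv1, Trpv4, Trpa1, Trpm2, Piezo1 and Piezo2. They were chosen by symbol, and all 10 were among the 24421 gene symbols of the count table. RNA was sequenced from cochlear explants of WT mice, taken at postnatal day 2, in 2 groups of 3 samples, control and neomycin. Between 6 and 8 cochleae were pooled for each sample. Explants were cultured for 12 h, and neomycin, an aminoglycoside antibiotic that kills HCs, was given at 1 mM for 6 h. A further 5 days of culture followed, and the labels list EdU at 10 µM. The labels print this neomycin protocol for all 6 samples and separate the groups by treatment alone, so the control group is taken as explants without neomycin. The stria vascularis anlage, the modiolus and the tectorial membrane were removed at dissection according to the study's methods, and the sources used here do not say whether the pools came from separate litters or cultures. The p-values therefore measure the spread between these pools, which may in part be technical.

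Aminoglycosides reach HCs mainly through the mechanotransduction channel of the hair bundle, and other routes have been proposed beside it. Megalin and cubilin are large receptors that bind ligands at the apical surface and carry them in by endocytosis, and megalin takes up aminoglycosides in the proximal tubule of the kidney. TRP channels are cation channels, some with pores wide enough for organic cations. Piezo channels open when the membrane is stretched, and PIEZO2 carries a current at the apical surface of neonatal HCs that does not pass through the tip link.

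Total counts lay between 50471116 and 66068108 per sample. The labelled tissue was checked on marker genes. All 18 HC markers were tested, and 17 of them were called lower after neomycin. Their summed level was 738 to 872 CPM in the control samples and 172 to 208 CPM in the neomycin samples, over all 18. CPM is the usual count relative to library size, here after TMM scaling of the libraries. Of the 14 SC markers, 1 was called higher and 2 lower, and their summed level was 10600 to 12237 CPM in control and 13510 to 16723 CPM after neomycin. Epyc and Tectb, at 5531 and 4230 CPM in control, made up most of the SC sum. In mean log2 CPM, which weights each gene equally, the SC markers differed by 0.019. The counts were 0 higher and 1 lower of 10 for Schwann cells and glia, 1 and 1 of 10 for mesenchyme, and 0 and 0 of 6 tested for melanocytes. Each sample is a mixture of cell types, so fewer cells of a type and less RNA per cell cannot be told apart.

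Of the 10 genes, 9 had enough counts to be tested, and Trpv1 did not. A gene was called differentially expressed when edgeR's quasi-likelihood test gave an adjusted p-value under 0.05 and the fold change was over 1.5. Piezo1 was called lower after neomycin, and 0 of the genes were called higher. Over all 15988 genes tested, 8.84% were called, 6.6% lower and 2.24% higher. With the adjusted p-value alone, 2 of the 9 genes passed, Piezo1 and Mcoln3, both lower, against 29% of all genes tested, 16.1% lower and 12.9% higher. At an unadjusted p-value under 0.05, edgeR, DESeq2 and limma-voom each gave 0 higher genes and the same number lower, 2. Groups did not overlap for 2 of the 9, against 43.5% of all genes tested, 22.5% with the lower values after neomycin. All 9 log2 fold changes were below 0, with a median of -0.21 against -0.0041 over all genes tested. Genes with long transcripts shared this shift. Among the 1948 tested genes with at least 9000 bases of merged exons the median log2 fold change was -0.22. Of these long genes 11.9% were called lower, and 43.0% had groups that did not overlap, with the lower values after neomycin. Lrp2, Cubn, Trpm2, Piezo1 and Piezo2 belong to the long genes, with merged exon lengths from 9935 to 17162 bases. Mcoln3, Mcoln2, Trpv4 and Trpa1 are shorter, from 3288 to 4263 bases.

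**Figure D1:**
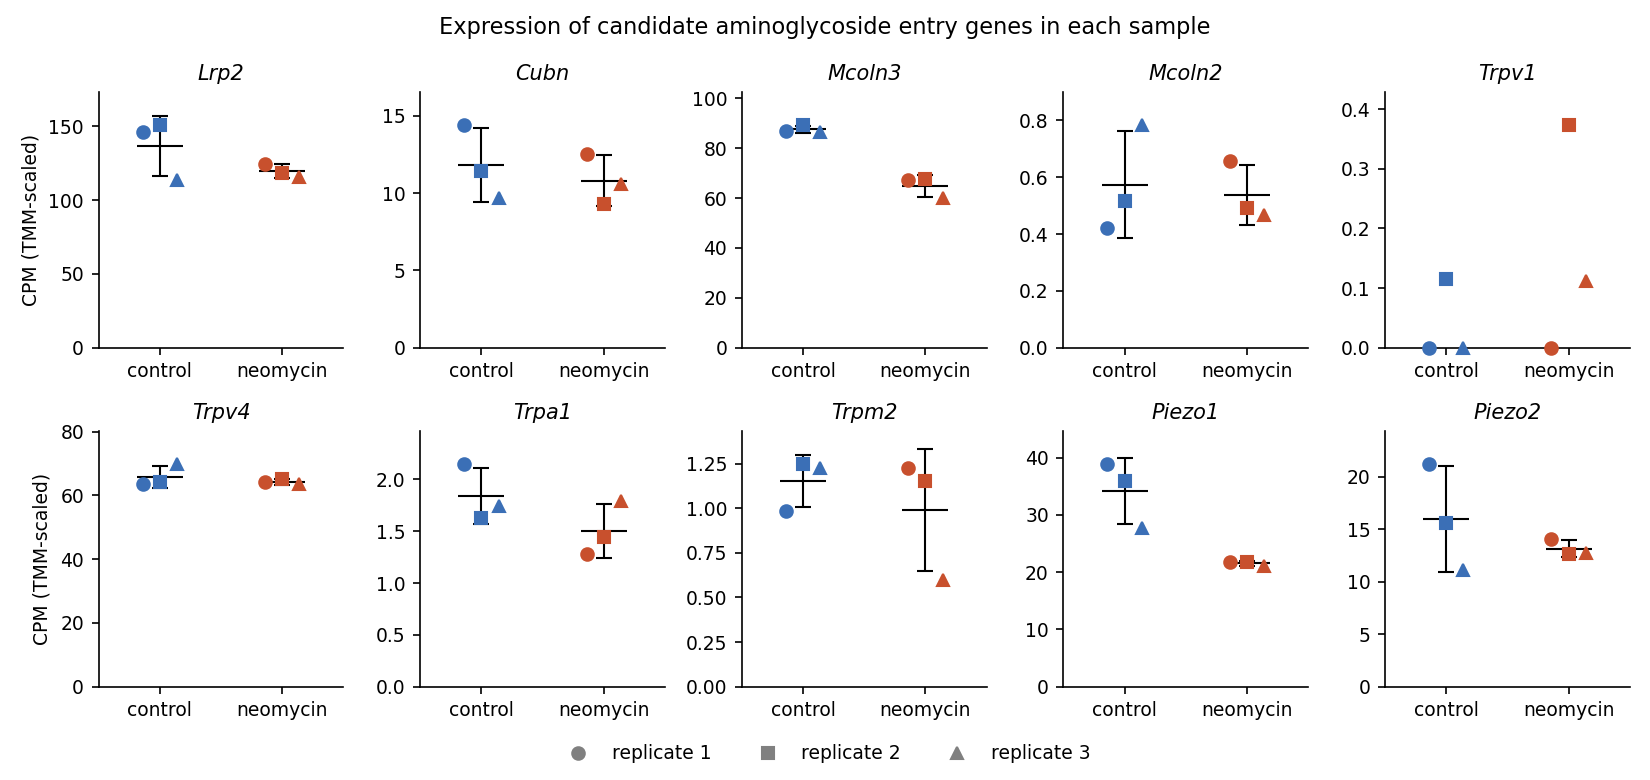
Each panel plots one gene in CPM on a linear axis from 0, with one point per sample, the mean as a bar and the SD as whiskers (n = 3 per group); Trpv1 is shown without mean and SD because 3 of its samples held no read. Control and neomycin points separate for Mcoln3 and Piezo1 and overlap for the other genes.

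Between genes, levels were compared as CPM per kilobase of merged exons. In control explants the order was Mcoln3 at 25.2 ± 0.420, Trpv4 at 16.1 ± 0.835, Lrp2 at 8.19 ± 1.21 and Piezo1 at 3.44 ± 0.582 CPM per kb (SD, n = 3). These 4 genes, a mucolipin, a TRPV channel, megalin and a Piezo channel, lay apart from each other and from all lower genes in every control sample. Piezo2 at 0.932 ± 0.293 and Cubn at 0.792 ± 0.160 CPM per kb followed, and their ranges overlapped. Trpa1 at 0.431 ± 0.0635, Mcoln2 at 0.174 ± 0.0571 and Trpm2 at 0.0925 ± 0.0117 CPM per kb came next, each apart from the one before. The order of all 10 genes was the same after neomycin and with the longest coding transcript as the length. After neomycin the ranges overlapped for Piezo2 and Cubn and for Trpm2 and Trpv1. Relatives thus differed widely in level. Mcoln3 was 145 times as high per kilobase as Mcoln2 in control, Lrp2 10.3 times as high as Cubn, and Piezo1 3.69 times as high as Piezo2.

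**Figure D2:**
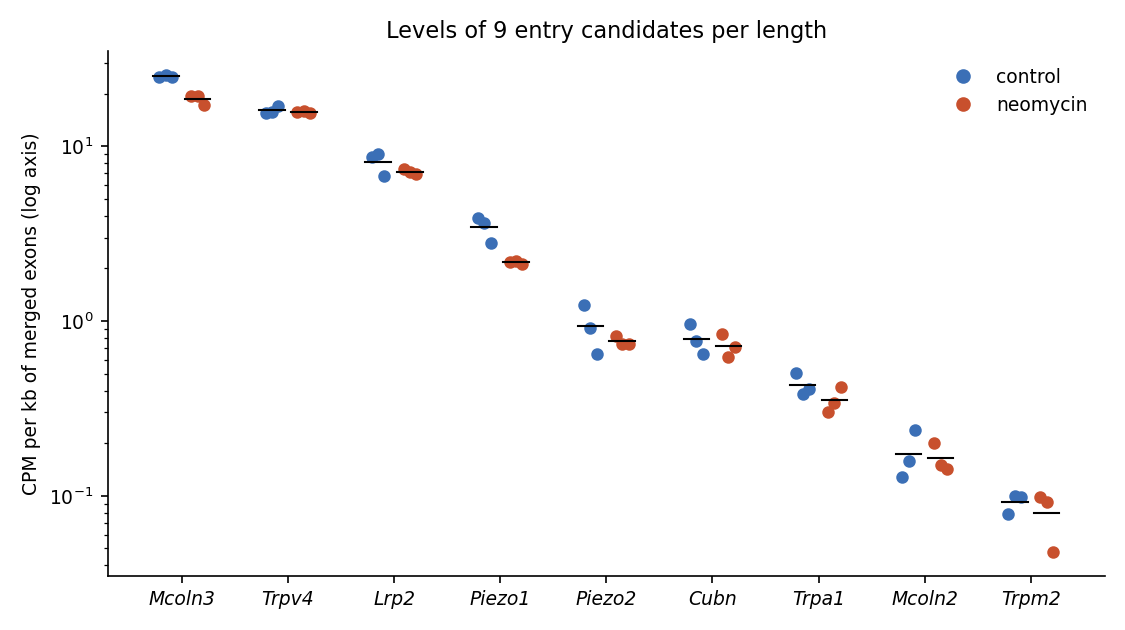
CPM per kilobase of merged exons on a log axis for 9 genes, one point per sample and a bar at the group mean, ordered by the control mean; Trpv1 is left out because it was at 0 in 3 samples. Mcoln3 stands highest in both groups, at 25.2 CPM per kb in control and 18.7 after neomycin, and Trpm2 lowest.

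Lrp2 encodes megalin, an endocytic receptor of the LDL receptor family, on chromosome 2 of mm10 from 69424340 to 69586065 on the minus strand. It was the most abundant of the genes by CPM, above 90.9% of all genes tested. Its levels were 146, 151 and 114 CPM in control replicates 1, 2 and 3 and 125, 119 and 116 CPM in neomycin replicates 1, 2 and 3. Control replicate 3 lay below all neomycin samples, so the groups overlapped. The log2 fold change was -0.19 (SE 0.10 and, by edgeR, adjusted p = 0.160), with a 95% interval for the change in level from -24.5% to 1.42%. Without control replicate 3 it was -0.30 (edgeR adjusted p = 0.00783). Once the trend on exon length was removed it turned to 0.074 (adjusted p = 0.454). Megalin is made by the epithelium of the cochlear roof and the marginal cells of the stria. Of 10 markers of these cells, 9 were tested, 0 were called and Vmo1 passed the adjusted p-value alone, on the higher side (log2 fold change 0.45, edgeR adjusted p = 0.0166). The 10 markers summed to 1681 to 2144 CPM in control and 2214 to 2410 CPM after neomycin. Oc90 and Vmo1, at 1031 and 649 CPM in control, made up most of this sum. In mean log2 CPM, which weights each gene equally, the markers differed by 0.11. Their log2 fold changes lay on both sides of 0, with a median of 0.09. The part of these markers in the level of Lrp2 was not tested.

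Cubn encodes cubilin, the peripheral membrane receptor that megalin helps to internalize, on chromosome 2 from 13276338 to 13491813 on the minus strand. Its levels were 14.4, 11.4 and 9.66 CPM in the control samples and 12.6, 9.30 and 10.6 CPM in the neomycin samples. The groups overlapped over most of their ranges. In Cubn the log2 fold change was -0.13 (SE 0.16 and, by edgeR, adjusted p = 0.555), with a 95% interval from -27.7% to 15.2%, and it turned to 0.043 without control replicate 1 and to 0.12 with the length correction. The transcript Gm13270 on the opposite strand shares 368 exonic bases with Cubn. The log2 ratio of Lrp2 to Cubn differed by -0.06 between the groups, less than its SD over the control samples of 0.190 (exact two-sided permutation test, p = 0.7).

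Mcoln3 encodes mucolipin 3 (TRPML3), a cation channel of endosomes, lysosomes and the surface of HCs, whose gain-of-function mutation causes deafness in varitint-waddler mice. The gene lies on chromosome 3 from 146117450 to 146141806 on the plus strand. Its levels were 87.0, 89.2 and 86.4 CPM in the control samples and 67.2, 67.5 and 59.9 CPM in the neomycin samples. All neomycin samples lay below all control samples, which differed little from each other. The mean went from 87.5 ± 1.45 to 64.8 ± 4.31 CPM (SD, n = 3), or by -0.43 in log2 fold change (SE 0.07 and, by edgeR, adjusted p = 0.00118). The level fell by 25.9%, with a 95% interval from -33.5% to -17.5%, and the fold change of 1.35 was under the threshold of 1.5. In all 17 alternative settings the adjusted p-value stayed under 0.05 and the log2 fold change between -0.50 and -0.38. The setting without the fold change threshold is among them, and for a single gene it repeats the main fit.

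Mcoln2 encodes mucolipin 2, an endolysosomal channel known from immune cells. It starts 8026 bases downstream of Mcoln3 on the same strand, on chromosome 3 from 146149833 to 146195513. Control samples held 29, 27 and 44 counts, and neomycin samples 35, 29 and 25. These are few reads, and the groups overlapped. For Mcoln2 a log2 fold change of -0.09 was fitted (SE 0.42 and, by edgeR, adjusted p = 0.898), with a 95% interval from -49.5% to 75.7%. Changes within these limits are compatible with these data. The direction turned without control replicate 3 (0.21) and without neomycin replicate 3 (0.0069). Of 12 macrophage markers in the same samples, 5 were called higher and 0 lower, and 6 did not pass the adjusted p-value. The 12 markers summed to 103 to 134 CPM in control and 147 to 181 CPM after neomycin. Their part in the levels of Mcoln2 and Trpm2 was not tested. For Mcoln3 and Mcoln2 the difference between their responses was within the spread of the replicates (log2 ratio -0.38, exact two-sided permutation test, p = 0.3).

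Among the other TRP channels, Trpv4 was high and varied little between samples. It encodes a channel opened by cell swelling, warmth and lipid messengers, on chromosome 5 from 114622152 to 114658421 on the minus strand. Its levels were 63.6, 64.1 and 69.7 CPM in control and 64.1, 65.3 and 63.4 CPM after neomycin. All but one sample lay within about the same narrow range, and control replicate 3 stood above the rest. Trpv4 differed by a log2 fold change of -0.03 (SE 0.07 and, by edgeR, adjusted p = 0.743), with a 95% interval from -11.9% to 8.26%. Without control replicate 3 the direction turned, to 0.021.

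Trpa1 encodes a channel gated by reactive irritants, best known from sensory neurons and also found in the cochlea, on chromosome 1 from 14872648 to 14918862 on the minus strand. It had 148, 85 and 98 counts in control and 68, 85 and 96 after neomycin, or 2.14, 1.63 and 1.74 CPM against 1.28, 1.44 and 1.79 CPM. The highest neomycin sample lay above 2 of the control samples. Trpa1 gave a log2 fold change of -0.29 (SE 0.26 and, by edgeR, adjusted p = 0.422), with a 95% interval from -44.8% to 20.5%. Of 12 markers of sensory neurons, 4 were called lower and 0 higher. With the adjusted p-value alone, 4 passed on the lower side and 3 on the higher side. The 12 markers summed to 396 to 491 CPM in control and 423 to 451 CPM after neomycin, and their part in Trpa1 was not tested.

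Trpm2 encodes a channel opened by ADP-ribose during oxidative stress, on chromosome 10 from 77907722 to 77970563 on the minus strand. It shares 44 and 47 exonic bases with the snoRNAs Gm22394 and Gm22871. It had 68, 65 and 69 counts in control and 65, 68 and 32 after neomycin. A single sample, neomycin replicate 3, stood apart at 0.596 CPM, and the other 5 lay between 0.985 and 1.25 CPM. Trpm2 gave -0.21 as log2 fold change (SE 0.34 and, by edgeR, adjusted p = 0.674), while leaving out neomycin replicate 3 gave 0.046.

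Trpv1, the capsaicin receptor of nociceptive neurons, lies on chromosome 11 from 73234292 to 73261242 on the plus strand. It had 0, 6 and 0 counts in the control samples and 0, 22 and 6 counts in the neomycin samples. It was therefore detected in 1 control and 2 neomycin samples and was not tested, and no fold is given. A count of 0 allows up to 3 counts, which is 0.0435 and 0.0534 CPM in control replicates 1 and 3 and 0.0565 CPM in neomycin replicate 1. These limits cover counting error only.

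Piezo1 encodes a mechanically gated cation channel found in endothelium, epithelia and many other cells. It lies on chromosome 8 from 122481698 to 122551329 on the minus strand. Its levels were 38.8, 36.0 and 27.7 CPM in the control samples and 21.7, 21.8 and 21.0 CPM in the neomycin samples. The neomycin samples were close together, and all lay below the lowest control sample, replicate 3. The mean went from 34.2 ± 5.78 to 21.5 ± 0.457 CPM (SD, n = 3), or by -0.67 in log2 fold change (SE 0.11 and, by edgeR, adjusted p = 0.00142). The level fell by 37.0%, a fold of 1.59 with a 95% interval from 1.34 to 1.88, which includes the threshold of 1.5. Without control replicate 1 the log2 fold change was -0.56 (adjusted p = 0.00329), and with the length correction it was -0.48 (adjusted p = 0.00226), so in both settings Piezo1 passed the adjusted p-value and not the fold change threshold.

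Other measurements moved beside Piezo1. Of 10 markers of the endothelium, cells that line blood vessels and express Piezo1, 7 were called lower and 0 higher, with a median log2 fold change of -1.94. Pecam1, an adhesion protein of endothelial junctions that was picked out after its value was seen, went from 9.78 to 1.49 CPM. The summed level of the 10 markers overlapped between the groups, at 312 to 354 and 298 to 351 CPM, and Emcn, at 252 CPM in control, made up most of it. In mean log2 CPM the endothelial markers differed by -1.53, and Piezo1 was higher relative to them after neomycin in every sample, by 0.88 on the log2 scale (exact two-sided permutation test, p = 0.1, the minimum of this permutation test with 3 samples a group). Their part in the fall of Piezo1 was not tested. Ctu2, on the opposite strand, shares 2441 exonic bases with Piezo1 and was higher by 0.30 on the log2 scale (edgeR adjusted p = 0.0284, under 0.05 in 13 of 17 alternatives), the opposite direction to Piezo1. No source gives the strand setting of the counting, so reads in the shared bases cannot be assigned to either gene.

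Piezo2 encodes the touch channel of Merkel cells and proprioceptors, and lies on chromosome 18 from 63010213 to 63387183 on the minus strand. Its levels were 21.2, 15.6 and 11.1 CPM in the control samples and 14.1, 12.6 and 12.7 CPM in the neomycin samples. The control samples spanned a 1.90-fold range that enclosed all the neomycin samples. The log2 fold change was -0.29 (SE 0.18 and, by edgeR, adjusted p = 0.248), with a 95% interval from -37.3% to 7.19%. It rested on single control samples, since it was -0.48 without control replicate 3 (edgeR adjusted p = 0.0187) and -0.02 without control replicate 1 (adjusted p = 0.938). With the length correction it was -0.0065 (adjusted p = 0.980). The ratio of Piezo1 to Piezo2 was lower in every neomycin sample than in any control sample, with a difference of -0.42 on the log2 scale (exact two-sided permutation test, p = 0.1, the smallest possible here, and 0.15 after Benjamini-Hochberg adjustment over the 6 ratios tested).

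**Figure D3:**
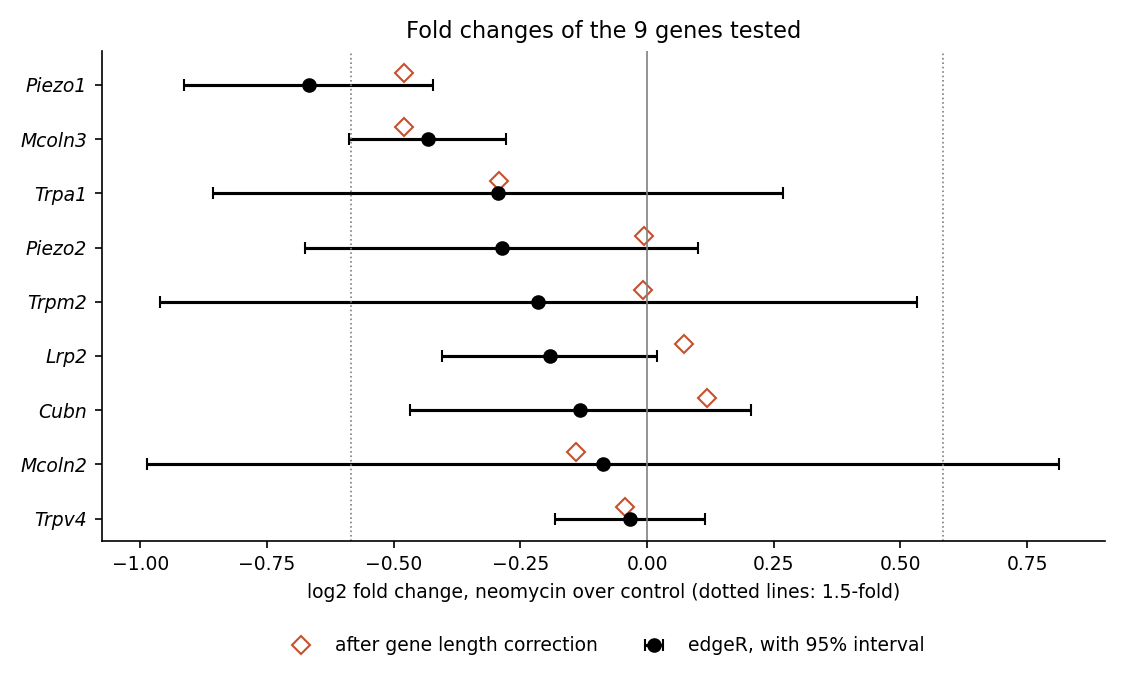
Black points give the log2 fold change of neomycin over control for the 9 genes tested, with 95% intervals, and open diamonds the value after the gene length correction; dotted lines mark a 1.5-fold change. Only the intervals of Piezo1 and Mcoln3 lie wholly below 0, and the correction moves the genes with long transcripts (Lrp2, Cubn, Trpm2, Piezo1 and Piezo2) to higher values.

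Piezo1 and Mcoln3 were set beside the HC markers in the same samples. The summed HC markers were at 26.4%, 23.8% and 21.9% of the control mean in neomycin replicates 1, 2 and 3. Mcoln3 was at 76.8%, 77.1% and 68.4%, and Piezo1 at 63.6%, 63.9% and 61.5%. Both genes thus kept a larger share of their control level than the summed HC markers did in each neomycin sample. This is not particular to them. Counted from the lowest log2 fold change of all genes tested, Piezo1 stood at 7.88% and Mcoln3 at 13.8%. Most genes tested therefore kept a still larger share. Ocm was the largest part of that sum, at 303 of 786 CPM in control. Single HC markers ranged from a change of -93.7% (Slc26a5) to -3.11% (Atoh1). Xirp2, at -36.0%, fell by about as much as Piezo1, at -37.0%. The log2 ratio of Mcoln3 to the summed HC markers went from -3.16 ± 0.149 to -1.54 ± 0.0804, a 3.08-fold difference, and that of Piezo1 from -4.53 ± 0.388 to -3.13 ± 0.115, a 2.65-fold difference (SD, n = 3, exact two-sided permutation test, p = 0.1 for each, again the minimum of the permutation test, and 0.15 after Benjamini-Hochberg adjustment over the 6 ratios). The test for Mcoln3 was chosen after its values were seen.

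**Figure D4:**
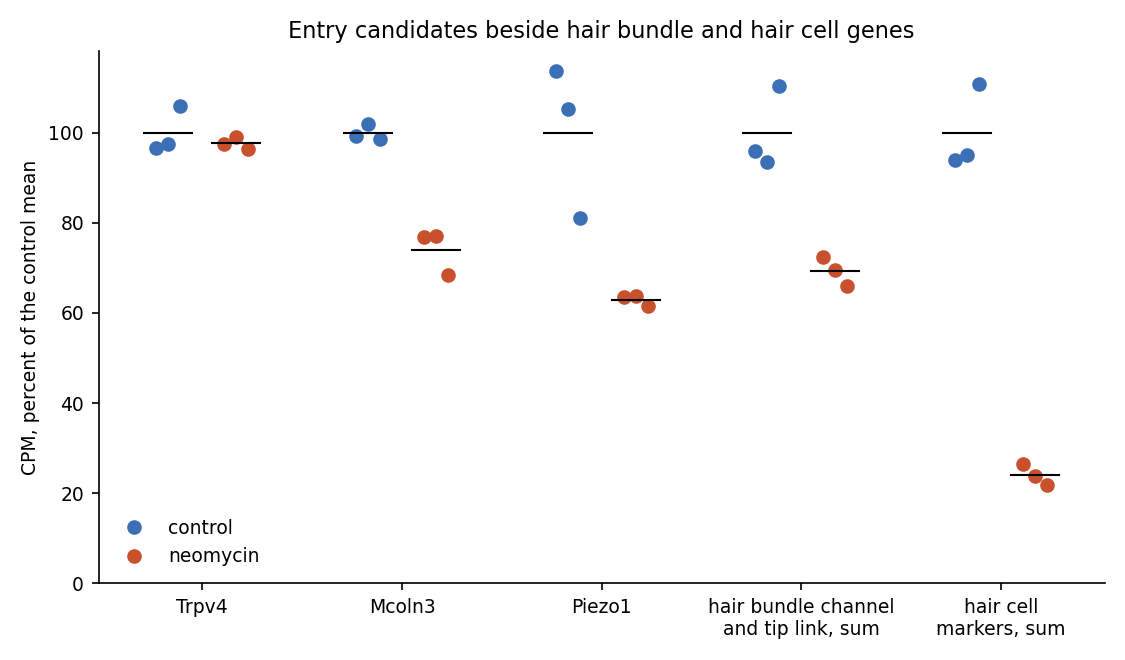
CPM as a percentage of the control mean for Trpv4, Mcoln3, Piezo1 and the summed CPM of the hair bundle and HC marker lists, one point per sample with a bar at the group mean. After neomycin the means are 97.7% for Trpv4, 74.1% for Mcoln3, 63.0% for Piezo1, 69.3% for the hair bundle list, whose sum is mostly Ush1c and Cib2, and 24.0% for the HC markers.

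The hair bundle channel and its tip link, the main entry route, gave 8 of 10 tested genes called lower and 0 higher, with a median log2 fold change of -0.88. Pcdh15, a tip link protein, was not called (log2 fold change 0.0014, edgeR adjusted p = 0.995). Among the genes called, Tmc2 and Ush1g had an adjusted p-value under 0.05 in 12 of 16 and 12 of 17 alternatives. Tmc1, a pore subunit of the mature channel, had the lowest log2 fold change, -3.16 (edgeR adjusted p = 3.91e-07), followed by Lhfpl5, an auxiliary subunit, at -1.77 (adjusted p = 3.13e-06). The smallest falls among those called were those of Tmie (-0.66) and Cdh23 (-0.82), and Cdh23 came under the fold change threshold with the length correction, without the replicate block (-0.56) and with it (-0.57). Ush1c and Cib2, at 115 and 117 CPM in control, made up most of the summed level of the list, and Ush1c was at 130 CPM after neomycin (log2 fold change 0.18, edgeR adjusted p = 0.110). In mean log2 CPM, which weights each gene equally, the list differed by -0.97. None of the 9 entry candidates tested had a log2 fold change as low as the median of the hair bundle list.

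Genes that work with megalin and cubilin were read next. Of 11 listed, 10 were tested, 1 was called lower and 0 higher, with a median log2 fold change of -0.10. The gene called was Clcn5, a chloride-proton exchanger of endosomes that megalin recycling depends on in the kidney, which went from 7.36 to 2.30 CPM (-1.68 on the log2 scale with an SE of 0.25, edgeR adjusted p = 0.000625). Lrpap1, the chaperone that folds megalin, passed the adjusted p-value alone with a log2 fold change of 0.35 (edgeR adjusted p = 0.00660), and was picked out after its value was seen. Amn, the membrane anchor of cubilin, was at 0.171 CPM in control and 0.0430 CPM after neomycin and was not tested.

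Of 22 other TRP channel genes, 16 were tested, 3 were called lower and 0 higher, with a median log2 fold change of -0.13. The lowest was Trpc5, a receptor-operated channel, which went from 0.510 to 0.111 CPM (log2 fold change -2.16, edgeR adjusted p = 0.0240). Its adjusted p-value was 0.0896 without control replicate 1, 0.0520 without control replicate 2, 0.0655 without neomycin replicate 1 and 0.0780 without neomycin replicate 3. Pkd2l1, a channel of the polycystin family, went from 6.53 to 3.07 CPM (-1.09, adjusted p = 0.000792), and Trpc1, a subunit of receptor-operated channels, from 7.87 to 4.94 CPM (-0.67, adjusted p = 0.00543). Trpc1 came under the fold change threshold with the length correction (-0.53), with the replicate block added to it (-0.54) and without neomycin replicate 3 (-0.58). Trpm4 and Trpm7 passed the adjusted p-value alone, with log2 fold changes of -0.24 and -0.23, in 10 and 9 of 17 alternatives, and were picked out after their values were seen. With the length correction the log2 fold changes were only -0.040 for Trpm4 and -0.030 for Trpm7 (edgeR adjusted p = 0.742 and 0.780). Mcoln1, the mucolipin of lysosomes in most cells, had a log2 fold change of -0.06 (edgeR adjusted p = 0.606), and 4 of the 22 genes had no count in any sample.

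Of 10 modulators of Piezo channels and other stretch-activated channels, 7 were tested, 1 was called lower and 0 higher, with a median of -0.19. The gene called was Tmem63c, of a family of osmosensitive channels, at 0.828 CPM in control and 0.309 CPM after neomycin (log2 fold change -1.43, edgeR adjusted p = 0.0393). Its adjusted p-value was over 0.05 without control replicate 1 (0.285), without control replicate 2 (0.0511) and without any one of the neomycin samples (0.0641 to 0.120). Tmem63b of the same family passed the adjusted p-value alone (-0.28, adjusted p = 0.0132). Mdfic and Mdfi, which bind Piezo channels and slow their inactivation, had log2 fold changes of 0.09 and 0.18 (edgeR adjusted p = 0.453 and 0.146).

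Over the 6 samples, the genes whose log2 CPM was most like that of Piezo1 among 14035 genes with a mean of at least 1 CPM were Arfgef3 (Pearson's r = 0.9998), Bcorl1 (r = 0.998) and Atm (r = 0.998). This is a description of 6 points that fall into 2 groups and share their libraries. Arfgef3 had a log2 fold change of -1.46, Bcorl1 of -0.65 and Atm of -0.34, so likeness of pattern did not mean a change of the same size.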

How the data were processed

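The authors deposited raw counts per gene symbol for 3 control and 3 neomycin samples. The submitters' processing notes name CASAVA 1.8, Trimmomatic 0.23, HISAT2, HTSeq, DESeq2 and the build mm10. The study's methods name UCSC mm10 as the annotation for counting. Its release, the strand setting and the handling of multi-mapped reads are not given in the sources used here. Total counts were 50471116 to 66068108 per sample, and a count of 0 allows up to 3 counts, or 0.0435 to 0.0575 CPM.

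Counts were scaled by TMM, filtered with filterByExpr and tested with the quasi-likelihood test of edgeR 4.0.16 in R 4.3.3, with Benjamini-Hochberg adjustment over 15988 genes. Alternatives used DESeq2 1.42.0, limma 3.58.1 (voom), other scalings and filters, a replicate block, a correction for each sample's lowess trend on exon length, and leaving out each sample. Scripts were tested on simulated data. Ratios of genes within a sample were compared by exact permutation tests. Coordinates, lengths and overlaps came from GENCODE M21 on the build of the files, which is not the annotation the reads were counted on, so exon models can differ. Mean log2 CPM of markers used a pseudocount of 0.1 CPM.

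The 10 genes and all lists were chosen with earlier results of these data known. Named beside them were up to 2 called genes at each end of each related list, at most the 2 most abundant markers of a cell type and the 3 genes most like Piezo1. Atoh1, Slc26a5, Xirp2, Pcdh15, Tmc2, Ush1g, Ush1c, Cib2, Amn, Lrpap1, Mcoln1, Trpm4, Trpm7, Mdfic, Mdfi, Tmem63b, Pecam1 and Ctu2 lie outside this rule. They were chosen after their values were seen.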

Additional observations from a re-analysis of the deposited data

How the results depend on the processing

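Among all genes, 1413 were called, 1037 to 1672 when 1 sample was left out and 1181 to 1480 under the other alternatives that kept both thresholds, and 4629 without the fold change threshold. The share of calls that were lower was 74.7%, and 84.3% with library totals alone as scaling. Of the 10 entry genes, 1 was called. The count was 2 without the fold change threshold, 0 with the gene length correction, 0 with the replicate block and length correction together, and 0 to 1 when a sample was left out (0 without control replicate 1). Related genes numbered 13, and 8 to 12 when a sample was left out, with 8 without neomycin replicate 3. The log2 fold change of Piezo1 stayed between -0.79 and -0.47 and that of Mcoln3 between -0.50 and -0.38, each with an adjusted p-value under 0.05 in 17 of 17 alternatives. Counts of alternatives for a single gene include the setting without the fold change threshold, which repeats the main fit.

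The direction turned for Lrp2 with the length correction (0.074) and with block and length correction (0.076), and for Cubn with the same alternatives (0.12 and 0.12) and without control replicate 1 (0.043). It also turned for Mcoln2 without control replicate 3 (0.21) and without neomycin replicate 3 (0.0069), for Trpv4 without control replicate 3 (0.021), for Trpm2 without neomycin replicate 3 (0.046) and for Piezo2 with block and length correction (0.018). With a sample left out, the values ranged from -0.25 to 0.043 for Cubn, -0.27 to 0.21 for Mcoln2, -0.052 to 0.021 for Trpv4 and -0.39 to 0.046 for Trpm2. The length correction removes by construction what a gene shares with others of its length; the cause of the other turns was not tested. In control, the level of Mcoln3 was 25.9 CPM per kb with library totals, and with the longest coding transcript as length the levels were 29.3 for Mcoln3, 20.4 for Trpv4, 4.16 for Piezo1, 1.49 for Piezo2, 1.05 for Cubn and 0.159 for Trpm2. Relative to HC markers the log2 difference was 1.18 to 1.55 for Piezo1 and 1.54 to 1.67 for Mcoln3 when a sample was left out, and 1.22 and 1.43 with the mean log2 CPM of the markers.

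Deviations from the group means correlated at 0.165, 0.0264 and 0.0949 between same-numbered samples, all above 0 and not all over 0.1, the level set for pairing by number. Control replicates 1 and 3 correlated best with their own number and control replicate 2 with neomycin replicate 3. The labels do not say what a number stands for, so whether the samples are paired was not established, and the block was kept as an alternative. With the replicate block, 1465 genes, 1 entry gene and 13 related genes were called, and Piezo1 had a log2 fold change of -0.65. The block with the length correction, the coding transcript lengths and all ratios except that of Piezo1 to HC markers were chosen after seeing the data. Few reads limit what can be seen for Trpv1, Mcoln2, Trpm2 and Trpa1.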
